A study of Homo sapiens with 10 samples.

Results

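The complement genes C3, CFB, CFI, C1R, C1S, SERPING1, CD46, CD55 and CD59 were followed in long-read transcriptomes of human ovarian cancer cell lines. Members were all deposited transcripts whose gene name, or any part of a joined gene name, was one of these symbols. They came to 9 of 57110 gene identifiers and 46 of 99493 transcripts, or 55 transcripts with those of the genes that share an identifier with C1S and CFB. The series was made to benchmark a tool for transcript quantification on nanopore reads, and its labels name no treatment. It holds 10 libraries of 7 lines. Each of COV362, COV504, OVKATE, OVMANA, OVTOKO and SK-OV-3 had 1 library from the PromethION, a high-output nanopore instrument. IGROV-1 had 2 PromethION libraries and 2 from the smaller MinION. Total RNA was used, and of each line the labels state only the name. Nothing in them says that the IGROV-1 replicates came from separate cultures, so p-values measure only the spread between these libraries, which may be technical.

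Complement is a set of plasma and membrane proteins that mark and lyse cells. The classical pathway starts when the C1 complex, with its proteases C1r and C1s, binds antibody or other targets, and SERPING1 encodes the C1 inhibitor that blocks both proteases. All routes meet at C3, whose cleavage tags surfaces, and factor B (CFB) supplies the protease that amplifies this step in the alternative pathway. Host cells defend themselves with membrane regulators. CD46 is a cofactor for the cleavage of C3b and C4b by the soluble protease factor I (CFI), CD55 speeds the decay of the C3 convertases, and CD59 blocks the final membrane attack complex. The liver makes most plasma complement, and carcinoma cells commonly carry the membrane regulators.

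Library totals lay between 1729782 and 3666224 counts, and levels are CPM, the count scaled to the library total, which the deposited TPM equalled. They are not divided by transcript length, so levels are compared between libraries. Where genes stand side by side, the values are counts or CPM without a correction for length. Both IGROV-1 pairs differed beyond counting noise (chi-square over its degrees of freedom 4.32 on PromethION and 6.64 on MinION). Within IGROV-1, KRT18 was 263 CPM in replicate 1 and 1041 in replicate 2 on PromethION, and 244 and 1080 on MinION. The 6 epithelial markers summed to between 404.0 CPM in IGROV-1 MinION replicate 1 and 9649.6 in COV504. The 4 ovarian surface and Mullerian markers summed to between 86.1 CPM in SK-OV-3 and 616.8 in OVKATE. Of these, the epithelial marker KRT18 and the Mullerian marker PAX8 were detected in every library. EPCAM lay at 1.5 CPM or less in the 4 IGROV-1 libraries, where KRT7 was at 0. Of the hepatocyte markers, ALB, FGA, FGB and TTR were at 0 in every library, while APOA1 reached 620 CPM in OVKATE. The 7 leukocyte markers summed to between 0.0 CPM in IGROV-1 PromethION replicate 1 and 66.5 in OVTOKO, with 16.8 in OVKATE and 13.4 in SK-OV-3. Of these markers, 2 reached 10 CPM in some library. CD3E, CSF1R and MS4A1 were at 0 in every library, PTPRC did not exceed 0.4 CPM, and CD68 reached 66.0 CPM in OVTOKO. The 5 fibroblast markers summed to between 1.6 and 434.5 CPM, with 330 in SK-OV-3 and the highest in COV362 through COL1A2 (429 CPM), and DCN did not exceed 0.6 CPM. The 3 endothelial markers summed to between 0.5 CPM in OVMANA and 25.8 in COV504. The part of all these marker transcripts in the results was not tested. In bulk RNA, fewer cells with a transcript and less of it per cell cannot be told apart.

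C3, the component on which all pathways meet, varied most in level of the 9 genes. It had 70.5 CPM in OVMANA, 138 in OVKATE, 1087 in OVTOKO, 12.2 in SK-OV-3, 5.09 in COV362 and 15.6 in COV504, against 0 in both IGROV-1 PromethION libraries and 0.27 and 0 CPM on MinION. OVTOKO stood alone at the top, 7.9-fold above OVKATE, and none of the 6 other lines overlapped IGROV-1. A count of 0 over both IGROV-1 PromethION libraries allows up to 3 counts or 0.64 CPM, so C3 was at least 1692-fold higher in OVTOKO, at least 214-fold higher in OVKATE and at least 7.93-fold higher in COV362, the lowest of the 6. C3 differed in all 6 comparisons, with Benjamini-Hochberg adjusted p-values of edgeR's quasi-likelihood test (below, edgeR adjusted p) from 2.9e-06 in OVTOKO to 0.003 in COV362. Down the order, OVTOKO differed from OVKATE and OVMANA from COV504 (edgeR adjusted p = 6.8e-05 and 0.0013). OVKATE and OVMANA (edgeR adjusted p = 0.084), COV504 and SK-OV-3 (0.35), and SK-OV-3 and COV362 (0.14) did not differ beyond their spread. The gene lies at chr19:6677704-6730562 on the minus strand of GRCh38 in GENCODE 29, where GPR108 and an intronic transcript overlap it on the same strand. All its counts were in the single listed transcript, C3-201.

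CFB had another order, with COV362 first. Its level was 1.60 CPM in OVMANA, 18.7 in OVKATE, 0.54 in OVTOKO, 20.7 in SK-OV-3, 44.7 in COV362, 19.1 in COV504 and 0 in all 4 IGROV-1 libraries. OVTOKO, the line richest in C3, thus held about 1 read of CFB. Against the floor of 3 counts, CFB was at least 69.5-fold higher in COV362 than in IGROV-1, at least 32.3-fold in SK-OV-3, at least 29.8-fold in COV504 and at least 29.3-fold in OVKATE (edgeR adjusted p = 0.00016 to 0.0007). OVMANA and OVTOKO had no more than 3 counts, and neither passed (edgeR adjusted p = 0.063 and 0.23). COV362 differed from SK-OV-3, the next in order (0.021 by edgeR), and OVKATE from OVMANA (0.012). Between these, SK-OV-3 and COV504 did not differ (0.98 by edgeR), nor did COV504 and OVKATE (0.64). The gene lies at chr6:31945650-31952084, plus strand, where C2 and AL645922.1 overlap it on the same strand, and the deposited identifier joins the 3 genes. Its counts were separated by the GENCODE gene of each transcript.

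CFI, the protease that inactivates C3b and C4b with a cofactor such as CD46, was highest in OVTOKO, as was C3. It had 0 CPM in OVMANA, 7.91 in OVKATE, 352 in OVTOKO, 24.8 in SK-OV-3, 42.7 in COV362, 19.6 in COV504, 28.6 and 30.9 in the IGROV-1 PromethION libraries and 23.2 and 33.4 on MinION. IGROV-1 therefore carried CFI transcripts with at most 1 read of C3 in a library and none of CFB, while OVMANA carried C3 without CFI. In OVTOKO the log2 change against IGROV-1 was 3.64 ± 0.20 (SE, edgeR adjusted p = 9.2e-06). CFI was at least 18.6-fold lower in OVMANA, at a floor of 3 counts in that library (edgeR adjusted p = 0.00021), and lower in OVKATE by a log2 change of -2.21 ± 0.34 (edgeR adjusted p = 0.0011). SK-OV-3, COV362 and COV504 did not pass (edgeR adjusted p = 0.18, 0.086 and 0.077). The IGROV-1 mean on PromethION was 29.8 ± 1.63 CPM (SD, n = 2). The gene is at chr4:109740694-109802179, minus strand, and AC126283.2 overlaps it there. CFI-201 held 85.6% to 96.0% of its counts in the libraries with any.

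**Figure D1:**
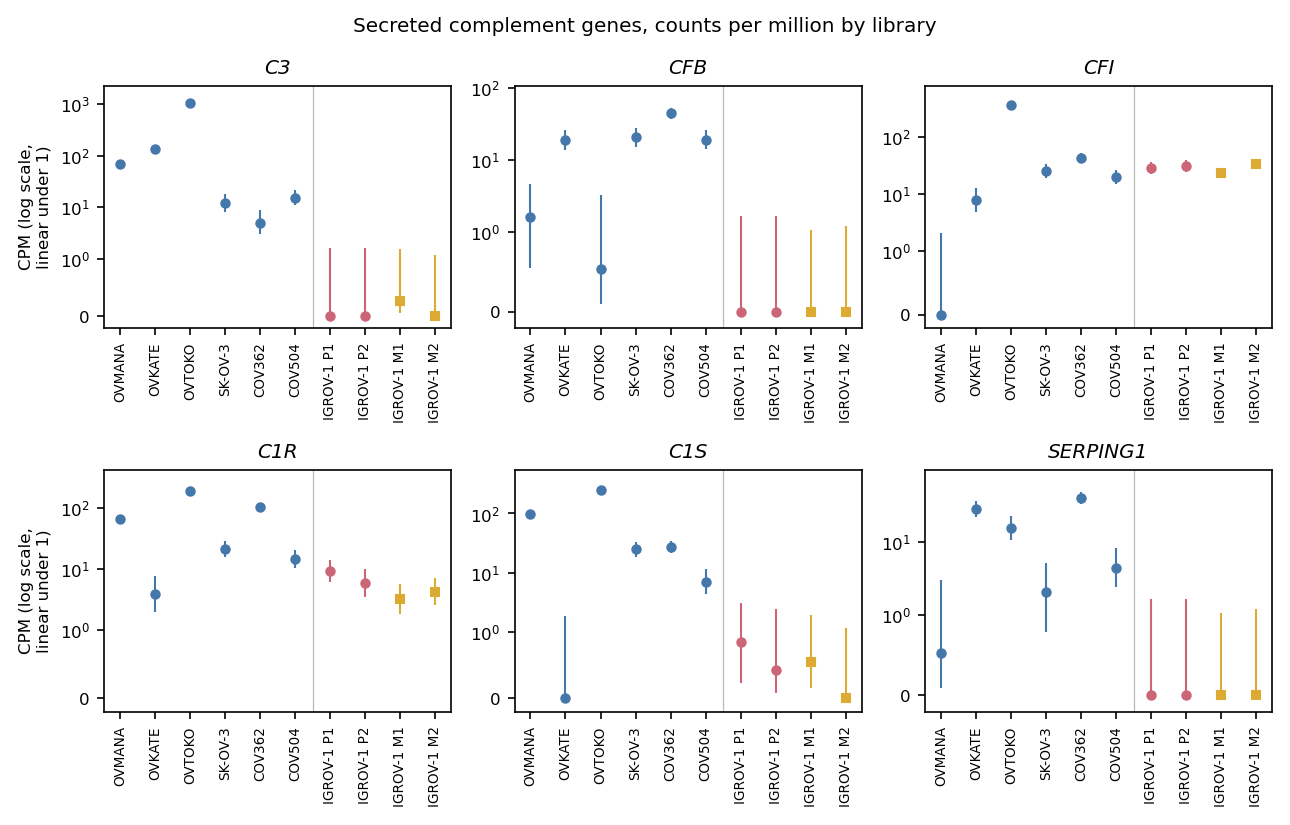
Level in CPM (log axis, linear under 1) of the 6 secreted complement genes in each of 10 libraries. Circles are PromethION and squares MinION libraries, blue marks the 6 lines with 1 library, red and yellow IGROV-1 (P1, P2, M1, M2 are replicates), and bars are 95% Wilson intervals for counting error. C3, CFI, C1R and C1S peak in OVTOKO, CFB and SERPING1 in COV362.

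The proteases of the C1 complex, C1R and C1S, neighbouring genes on chromosome 12, were on PromethION both highest in OVTOKO and lowest in OVKATE. C1R had 66.3 CPM in OVMANA, 3.96 in OVKATE, 192 in OVTOKO, 21.3 in SK-OV-3, 104 in COV362 and 14.7 in COV504. IGROV-1 had 9.40 and 6.01 CPM on PromethION and 3.27 and 4.33 on MinION, so OVKATE alone among the lines fell at the IGROV-1 levels. Against IGROV-1, C1R was higher in OVTOKO by a log2 change of 4.71 ± 0.24 (SE), in COV362 by 3.79 ± 0.24, in OVMANA by 3.16 ± 0.27 and in SK-OV-3 by 1.23 ± 0.32 (edgeR adjusted p = 6.3e-06, 2.3e-05, 7.6e-05 and 0.016). The SK-OV-3 call was lost with DESeq2 and without PromethION replicate 2 or MinION replicate 1 of IGROV-1, with adjusted p-values of 0.0022 to 0.24 over all settings. OVKATE and COV504 did not pass (edgeR adjusted p = 0.056 and 0.075). OVKATE passed without PromethION replicate 2 of IGROV-1 (0.019, with 0.019 to 0.4 over all settings) and COV504 without replicate 1 (0.031, with 0.031 to 0.49).

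C1S had 99.4 CPM in OVMANA, 0 in OVKATE, 245 in OVTOKO, 24.8 in SK-OV-3, 27.8 in COV362 and 7.12 in COV504. The IGROV-1 libraries held 2 and 1 reads on PromethION and 2 and 0 on MinION. All lines but OVKATE lay above IGROV-1. With 3 summed reads in IGROV-1, the ratio was 382 in OVTOKO, with an exact 95% counting interval from 130 to 1857, and 11.1 in COV504, with an interval from 3.17 to 59.3. The 5 differences passed (edgeR adjusted p = 3.3e-06 to 0.0068), and OVKATE did not (0.19 by edgeR). OVMANA differed from COV362 (edgeR adjusted p = 0.002) and SK-OV-3 from COV504 (0.023), while COV362 and SK-OV-3 did not differ (0.34). In C1R, the same test separated COV362 from OVTOKO (edgeR adjusted p = 0.014) but not from OVMANA (0.069).

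C1R lies at chr12:7080199-7092607 on the minus strand and C1S at chr12:6988259-7071032 on the plus strand. The deposited C1S identifier also holds EMG1, a ribosome biogenesis gene, and C1S made up 75.0% of the joined counts in OVTOKO but 1.9% and 1.1% in the IGROV-1 PromethION libraries. With both genes left joined, SK-OV-3 no longer differed (log2 change 0.35, edgeR adjusted p = 0.18). C1R-209 held at least 99.9% of the C1R counts in every library. The C1S counts fell mainly on C1S-201 and on C1S-205, which starts far upstream and encodes the same protein. C1S-205 held 23.0% of 71 counts in COV362 (95% Wilson interval 14.4% to 33.5%) and 3.0% of 424 in OVTOKO (1.8% to 5.2%), and these intervals do not overlap. IGROV-1 had too few C1S reads to compare, and no line passed the usage test for C1S (edgeR adjusted p = 1.0 in all 6).

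SERPING1, which encodes the inhibitor of C1r and C1s, did not follow them. Its level was 0.53 CPM in OVMANA, 28.7 in OVKATE, 15.6 in OVTOKO, 2.03 in SK-OV-3, 40.4 in COV362, 4.45 in COV504 and 0 in all 4 IGROV-1 libraries. OVKATE, on PromethION the lowest line in both proteases, was second in their inhibitor. Its C1R and C1S did not pass against IGROV-1 (edgeR adjusted p = 0.056 and 0.19). OVMANA had 1 read of the inhibitor beside 124 of C1R and 186 of C1S. Against the floor in IGROV-1, SERPING1 was at least 62.8-fold higher in COV362, at least 44.6-fold in OVKATE, at least 24.3-fold in OVTOKO and at least 6.92-fold in COV504 (edgeR adjusted p = 0.00021, 0.00036, 0.0014 and 0.0097). The COV504 value rests on 10 reads and reached 0.05 without MinION replicate 1 of IGROV-1 (edgeR adjusted p from 0.0023 to 0.05 over all settings). SK-OV-3, with 4 reads, passed at an edgeR adjusted p of 0.047, and 8 alternatives lost this call (0.044 to 0.16 over all settings). OVMANA did not pass (0.24 by edgeR). Of neighbours in the order, OVTOKO differed from COV504 (edgeR adjusted p = 0.035), and the other 5 pairs did not. The gene lies at chr11:57597387-57614853, plus strand, and no other annotated gene overlaps it.

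CD46, the membrane cofactor for factor I, was the steadiest of the 9 genes. It had 267 CPM in OVMANA, 192 in OVKATE, 253 in OVTOKO, 178 in SK-OV-3, 117 in COV362, 260.3 in COV504, 255 and 235 in the IGROV-1 PromethION libraries and 290 and 274 on MinION. The highest line was 2.29-fold above the lowest. OVMANA, COV504, OVTOKO and IGROV-1 lay close together and did not differ from each other (edgeR adjusted p = 0.41 to 0.98). Each of them differed from each of OVKATE, SK-OV-3 and COV362 (edgeR adjusted p = 0.0022 to 0.027), which did not differ among themselves (0.17 to 0.92). Against IGROV-1 the log2 change was -0.65 ± 0.17 (SE) in OVKATE, -0.69 ± 0.17 in SK-OV-3 and -1.03 ± 0.17 in COV362 (edgeR adjusted p = 0.012, 0.012 and 0.0022). With DESeq2 the OVKATE and SK-OV-3 calls were lost (adjusted p = 0.24 and 0.21, where all settings gave 0.012 to 0.24 and 0.0096 to 0.21), and the COV362 call was kept (0.00012 to 0.025). The gene lies at chr1:207752057-207795513 on the plus strand of GRCh38, and a pseudogene, CDCA4P4, overlaps it.

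CD46 differed more in its splicing. Near the membrane, the protein has a stretch rich in serine, threonine and proline that carries O-linked sugars, encoded by 3 small exons (STP-A, STP-B and STP-C), and it ends in 1 of 2 cytoplasmic tails, CYT-1 or CYT-2. A transcript with the CYT-1 exon stops inside it, and a transcript without it reads on to the stop codon of the CYT-2 tail. The sequences below, from GENCODE 29 transcripts on GRCh38, are shown because the results on CD46 turn on these exons. The STP exons are at chr1:207767607-207767651, chr1:207767779-207767823 and chr1:207770321-207770362, plus strand, and their capitals mark whole codons for serine, threonine or proline. The coding parts of the tails begin at 207790253 and 207793519 on chromosome 1, and their capitals mark the stop codon.
STP-A exon: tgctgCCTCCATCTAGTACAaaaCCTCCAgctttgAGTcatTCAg
STP-B exon: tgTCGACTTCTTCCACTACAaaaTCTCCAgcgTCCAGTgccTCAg
STP-C exon: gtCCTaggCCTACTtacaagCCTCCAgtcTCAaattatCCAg
CYT-1 tail: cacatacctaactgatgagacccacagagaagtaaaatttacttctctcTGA
CYT-2 tail: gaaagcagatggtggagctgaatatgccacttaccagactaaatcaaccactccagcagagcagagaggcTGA

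Serine, threonine or proline codons made up 9 of the 14 whole codons of STP-A, 11 of 14 in STP-B and 7 of 13 in STP-C. Both small exons STP-A and STP-B have 45 nt, so including or skipping either keeps the reading frame. Of the 10 CD46 transcripts with counts, 4 held at least 10% of the gene in 1 or more libraries. They are the 4 combinations of STP-B and tail with STP-C, namely CD46-203 (STP-B, CYT-2), CD46-208 (STP-B, CYT-1), CD46-204 (no STP-B, CYT-2) and CD46-207 (no STP-B, CYT-1).

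The share of CD46 counts in transcripts with the STP-B exon was 86.9% in OVMANA, 45.9% in OVKATE, 66.4% in OVTOKO, 86.9% in SK-OV-3, 41.8% in COV362 and 29.4% in COV504. IGROV-1 had 46.6% and 45.9% on PromethION and 43.1% and 44.1% on MinION. OVMANA and SK-OV-3 were high, with 95% Wilson intervals of 83.6% to 89.5% and 83.0% to 90.1%. OVTOKO came next (61.9% to 70.7%), OVKATE and COV362 overlapped IGROV-1, and COV504 was lowest (25.9% to 33.2%). OVMANA and COV504, whose CD46 levels differed by less than the spread, thus stood at opposite ends for this exon.

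The CYT-1 exon followed another order. Its share was 29.6% in OVMANA, 25.5% in OVKATE, 21.2% in OVTOKO, 38.9% in SK-OV-3, 47.0% in COV362 and 30.1% in COV504, against 13.0% and 13.1% in IGROV-1 on PromethION and 14.4% and 15.2% on MinION. IGROV-1 had the lowest CYT-1 share of the 7 lines, and COV362 the highest, with an interval of 41.4% to 52.6%. STP-A was rare, at 1.3% to 5.9% of the counts of a library, and STP-C was in 97.6% to 99.9%. The other variable coding exons of CD46, of 189 nt and 64 nt, were in 98.1% or more of the counts in every library.

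The share of CYT-1 could also be taken apart by STP-B. In OVMANA, 31.8% of transcripts with STP-B carried CYT-1 (95% Wilson interval 27.6% to 36.3%) but 14.9% of those without it (8.4% to 25.7%). In OVTOKO the shares were 26.2% (21.4% to 31.5%) and 11.3% (7.3% to 17.7%). The intervals also parted in the second MinION library of IGROV-1, at 19.1% (15.6% to 23.4%) and 12.1% (9.5% to 15.3%), and overlapped in the 7 other libraries. In the first IGROV-1 PromethION library the shares were 12.1% with STP-B and 13.8% without. These intervals cover counting error only.

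**Figure D2:**
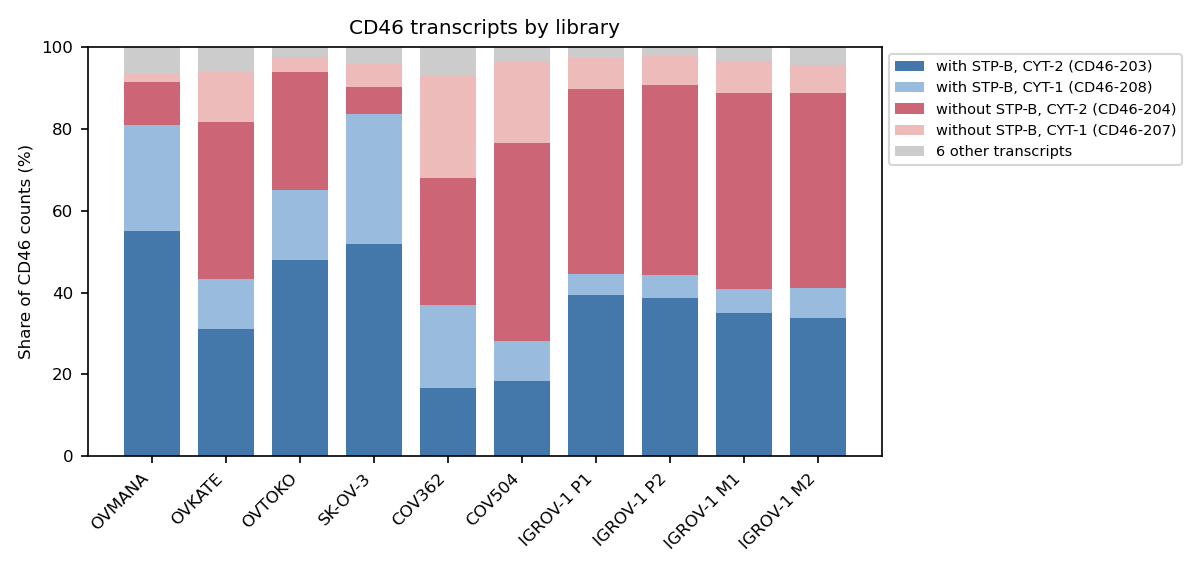
Share of CD46 counts (percent, vertical axis) in each of 4 transcripts and in the 6 others together, by library (horizontal axis, P and M are the IGROV-1 PromethION and MinION replicates). Blue bars, transcripts with the STP-B exon, fill most of OVMANA and SK-OV-3 and least of COV504, and the light shades, transcripts with CYT-1, are thinnest in IGROV-1.

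**Figure D3:**
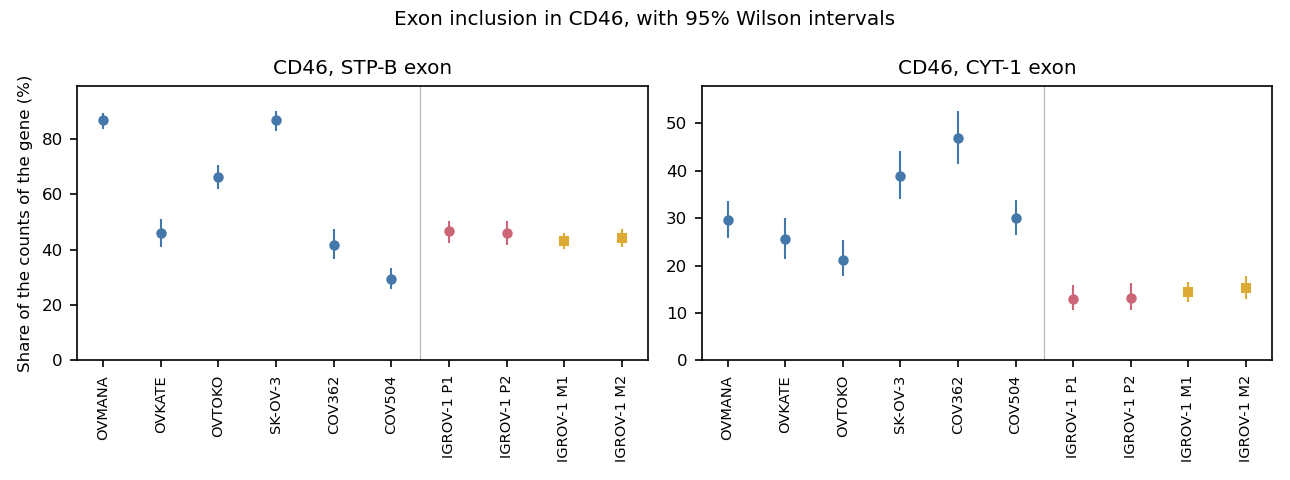
Share of CD46 counts in transcripts with the STP-B exon (left) and with the CYT-1 exon (right), in percent, by library. Points are libraries, coloured by line or instrument as in the level plots, and bars are 95% Wilson intervals. STP-B runs from 29.4% in COV504 to 86.9% in OVMANA and SK-OV-3, and CYT-1 from 13.0% in IGROV-1 to 47.0% in COV362.

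Transcript usage of CD46 differed from IGROV-1 PromethION in 5 of 6 lines. Of the 5 members with a usage test (CD46, CD55, CD59, C1S and CFI), only CD46 passed it per gene, and C3, CFB, C1R and SERPING1 had no such test. The edgeR adjusted p was 2.9e-05 in OVMANA, 0.0023 in OVTOKO, 2.4e-06 in SK-OV-3, 0.00016 in COV362 and 0.0036 in COV504. Of 4699 genes tested, 1.89%, 0.958%, 1.53%, 2.55% and 2.19% passed in these lines. In OVKATE, where 3.72% of genes passed, CD46 did not (edgeR adjusted p = 0.09). With transcripts kept only from 10 CPM, CD46 passed there (edgeR adjusted p = 0.044), as did 207 of 2880 genes. The OVTOKO and COV504 calls were lost without PromethION replicate 1 of IGROV-1 (edgeR adjusted p = 0.26 and 0.15) or replicate 2 (0.16 and 0.18). Of the 11861 transcripts tested, 1.13% passed in OVMANA, 2.15% in OVKATE, 0.582% in OVTOKO, 0.868% in SK-OV-3, 1.38% in COV362 and 1.18% in COV504. Relative to the whole gene, CD46-208 rose by a log2 change of 2.24 in OVMANA and 2.55 in SK-OV-3 while CD46-204 fell, by -2.12 and -2.81 (edgeR adjusted p per transcript at most 1e-05). CD46-208 also rose in OVTOKO, by 1.65 (edgeR adjusted p = 0.00082), and did not pass on leaving out the first or the second PromethION replicate of IGROV-1 (0.15 and 0.11). It passed in OVKATE at 1.19 (edgeR adjusted p = 0.045, with 0.026 to 0.21 over all settings), and CD46-207 in OVMANA at -1.84 (0.027, with 0.021 to 0.17). Leaving out any 1 IGROV-1 library ended both of these calls. In COV362, CD46-207 and CD46-208 rose, by 1.84 and 1.92 (8.9e-05 and 8.4e-05), and CD46-203 fell, by -1.21 (edgeR adjusted p = 0.011). In COV504, CD46-207 rose by 1.47 (0.0014) and CD46-203 fell by a log2 change of -1.09 (edgeR adjusted p = 0.01). The falls of CD46-203 in both lines and the rise of CD46-207 in COV504 did not pass on leaving out the first or the second PromethION replicate of IGROV-1 (edgeR adjusted p = 0.076 to 0.12).

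CD55, the regulator that dissociates the C3 convertases, spanned 41.1-fold between lines. It had 25.6 CPM in OVMANA, 43.0 in OVKATE, 29.5 in OVTOKO, 58.8 in SK-OV-3, 299 in COV362 and 236 in COV504, against 6.83 and 7.73 in IGROV-1 on PromethION and 10.6 and 10.2 on MinION. COV362 and COV504 stood apart at the top and did not differ from each other (edgeR adjusted p = 0.091), and COV504 differed from SK-OV-3, the next line (0.00026). Every line lay above the 4 IGROV-1 libraries. The log2 change against IGROV-1 PromethION was 5.39 ± 0.20 (SE) in COV362, 4.93 ± 0.20 in COV504, 2.77 ± 0.23 in SK-OV-3, 2.25 ± 0.24 in OVKATE, 2.09 ± 0.27 in OVTOKO and 1.87 ± 0.27 in OVMANA. All 6 passed (edgeR adjusted p = 2.1e-06 to 0.0012) and kept their calls in every setting run. The gene is at chr1:207321376-207386804, plus strand, on the same chromosome arm as CD46, and no other annotated gene overlaps it.

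CD55 is tethered to the membrane by a GPI anchor, a lipid. Its transcript usage passed against IGROV-1 in no line (edgeR adjusted p = 0.29 to 0.97), and the IGROV-1 PromethION libraries held only 16 and 18 of its counts. The 3 main CD55 transcripts have 3 distinct coding sequences, of 1320 nt in CD55-201, 1332 nt in CD55-203 and 1143 nt in CD55-204. Summed over all libraries, they held 137.3, 195.9 and 1344.0 counts. Which of them encode the anchor was not examined.

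CD59, which blocks the membrane attack complex and is also GPI-anchored, was highest in COV362 and COV504, as was CD55. Its level was 82.8 CPM in OVMANA, 291 in OVKATE, 273 in OVTOKO, 298 in SK-OV-3, 516 in COV362 and 449 in COV504, with 77.3 and 90.6 in IGROV-1 on PromethION and 111 and 109 on MinION. OVMANA fell within the IGROV-1 range, and the other 5 lines lay above it. The log2 change against IGROV-1 was 2.66 ± 0.16 (SE) in COV362, 2.34 ± 0.16 in COV504, 1.60 ± 0.16 in SK-OV-3, 1.49 ± 0.16 in OVKATE and 1.78 ± 0.17 in OVTOKO (edgeR adjusted p = 1.8e-05 to 0.00021). It was 0.04 ± 0.19 in OVMANA (edgeR adjusted p = 0.92), with the sign turning without PromethION replicate 1 of IGROV-1 (-0.07). COV362 and COV504 did not differ (edgeR adjusted p = 0.24), nor did SK-OV-3 and OVKATE (0.68) or OVKATE and OVTOKO (0.25).

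**Figure D4:**
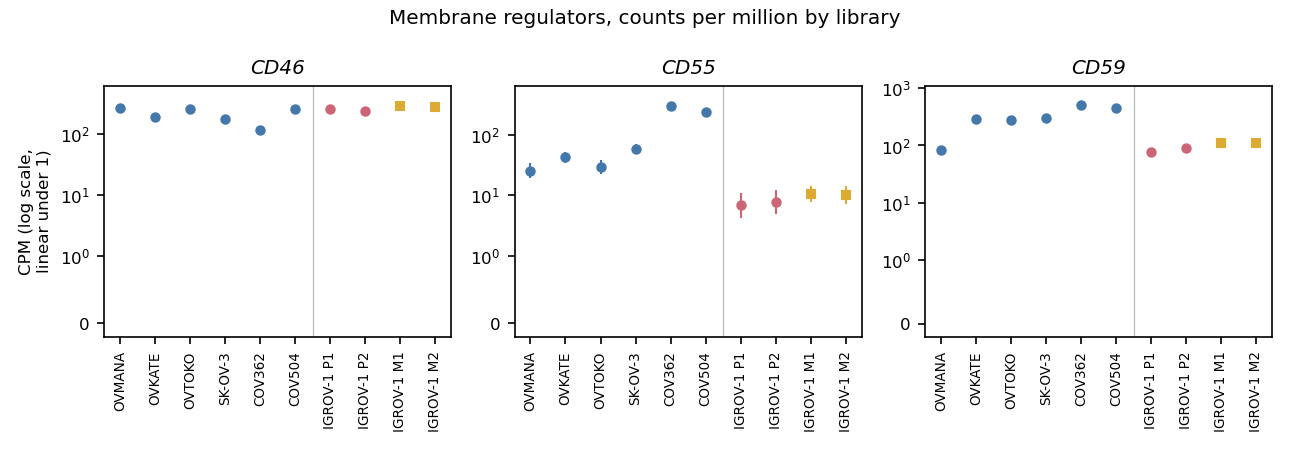
Level in CPM (log axis, linear under 1) of the membrane regulators CD46, CD55 and CD59 in each of 10 libraries, with 95% Wilson intervals for counting error. Circles are PromethION and squares MinION libraries. CD46 stays between 117 and 290 CPM, whereas CD55 runs from 6.83 to 299 and CD59 from 77.3 to 516, both highest in COV362.

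CD59 lies at chr11:33703010-33736491 on the minus strand, and the gene AL049629.2 overlaps it on the same strand. Its 3 main transcripts differ outside the coding sequence and encode the same protein. The share starting at the downstream site (mainly CD59-203) was 18.5% in OVMANA, 12.2% in OVKATE, 5.6% in OVTOKO, 6.8% in SK-OV-3, 17.4% in COV362 and 5.4% in COV504. It was 6.8% and 6.0% in IGROV-1 on PromethION and 15.9% and 16.3% on MinION. Both MinION values lay above both PromethION values of this line and within the range of the other 6 lines. The rise of CD59-203 passed per transcript in COV362 (relative log2 change 1.44, edgeR adjusted p = 0.046) and on MinION (1.31, edgeR adjusted p = 0.048), where 1.38% and 3.33% of the transcripts tested passed (5.9% of genes on MinION). Per gene neither passed (edgeR adjusted p = 0.06 and 0.065). Both transcript calls were lost on leaving out any 1 IGROV-1 library, with adjusted p-values of 0.15 to 0.26 in COV362 and 0.23 to 0.37 on MinION.

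**Figure D5:**
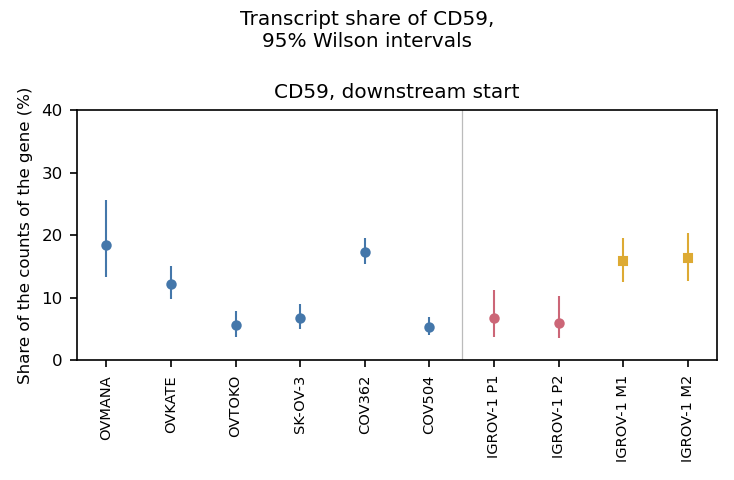
Share in percent (vertical axis) of the CD59 counts that start at the downstream site, by library (horizontal axis), with 95% Wilson intervals. Circles are PromethION and squares MinION libraries. The MinION libraries of IGROV-1, at 15.9% and 16.3%, lie above its PromethION libraries, at 6.8% and 6.0%, and OVMANA and COV362 are the highest of the other lines.

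All 9 genes differed among the 7 lines on PromethION (edgeR adjusted p = 2.7e-06 for C3 to 0.0024 for CD46), in a test in which 80.5% of all genes passed. Between the lines, the log2(CPM + 1) of a member ranged over a median of 5.37, against 2.03 for the 11390 genes with at least 10 CPM in 1 line. Against IGROV-1, 4 members were higher and 1 lower in OVMANA, where 35.1% of all 13298 genes passed, 18.8% higher and 16.3% lower. The counts were 5 higher and 2 lower in OVKATE (49.0% of all genes, 26.7% higher and 22.3% lower) and 7 higher and 0 lower in OVTOKO (33.6%, 18.0% and 15.6%). They were 7 higher and 1 lower in SK-OV-3 (41.3%, 21.8% and 19.6%), 7 higher and 1 lower in COV362 (41.9%, 23.3% and 18.5%), and 6 higher and 0 lower in COV504 (43.0%, 23.7% and 19.3%). The only members that passed as lower in any line, in the fit with all libraries, were CD46 and CFI. C3, CFB and SERPING1 had 0 counts in both IGROV-1 PromethION libraries and could not pass as lower, and C1S had 3 counts there. Their counts in other lines kept these genes in the test, so the members' calls and medians lean towards higher. With genes at 0 put at the floor, and those with no more than 3 counts on both sides left out, the members' median log2 change was 1.87 in OVMANA, 1.87 in OVKATE, 4.12 in OVTOKO, 1.66 in SK-OV-3, 3.79 in COV362 and 2.79 in COV504. The median of all genes, on fitted changes with neither of these steps, lay between -0.006 and 0.035. On that measure the members' median was 3.16 in OVMANA, 1.49 in OVKATE, 3.71 in OVTOKO, 2.77 in SK-OV-3, 5.37 in COV362 and 3.3 in COV504. The 6 comparisons share their IGROV-1 libraries, and the fit takes the spread of every line from the IGROV-1 replicates, with 2 residual degrees of freedom. With DESeq2, 5 members instead of 8 passed in SK-OV-3, where 12.6% of all genes passed instead of 41.3%.

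Of the 54 neighbouring pairs in the orders of the 9 genes, 20 differed (37.0%), where 24.4% to 49.0% of all genes passed between any 2 lines. C1S had 4 such steps among its 6, C3 and CFI had 3, and SERPING1 and CD46 had 1. DESeq2 separated 9 of the pairs, where 3.99% to 15.7% of all genes passed between any 2 lines. Both shares of all genes are unlike the members' share, since their pairs were not chosen as neighbours in each gene's order. No share over such neighbours was taken for all genes. Without MinION replicate 1 of IGROV-1 the edgeR shares of all genes ran from 0 genes for COV362 against COV504 (instead of 3257) to 40.3%, with 939 genes for OVMANA against OVTOKO (instead of 3247) and 1045 for OVTOKO against SK-OV-3 (instead of 3455). Of all genes, in the fit with all libraries, 37.9% passed between OVMANA and OVKATE, 24.4% between OVMANA and OVTOKO, 33.7% between OVMANA and SK-OV-3, 35.8% between OVMANA and COV362 and 33.2% between OVMANA and COV504. OVKATE gave 39.8% against OVTOKO, 37.9% against SK-OV-3, 32.7% against COV362 and 33.7% against COV504. OVTOKO gave 26.0% against SK-OV-3, 34.3% against COV362 and 30.9% against COV504, while SK-OV-3 gave 34.7% against COV362 and 28.5% against COV504, and COV362 gave 24.5% against COV504.

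Between instruments, none of the 5 members with enough counts to be tested differed in IGROV-1, where 0.793% of 10214 genes passed, 0.108% higher and 0.685% lower on MinION. The log2 change of MinION against PromethION was 0.16 ± 0.13 (SE) for CD46, 0.48 ± 0.29 for CD55, 0.35 ± 0.14 for CD59, -0.13 ± 0.20 for CFI and -1.06 ± 0.38 for C1R (edgeR adjusted p = 0.23 to 0.81). C1R and CD59 had an unadjusted p of 0.022 and 0.034 in edgeR's quasi-likelihood test, and DESeq2 also called 0 members. In a fit with the replicate number as a block, C1R and CD59 passed (edgeR adjusted p = 0.047 and 0.005), as did 19.7% of all genes. CD46, CD55 and CD59 had higher levels in both MinION than in both PromethION libraries and C1R lower ones, in each case without overlap. No share of all genes without overlap was taken, so these separations are not read as particular to the members. Mitochondrial rRNA took 9.13% and 10.95% of the IGROV-1 PromethION counts, 1.58% to 3.31% in the other lines and 1.01% to 1.15% on MinION. With it left out of the totals, CD46 in the IGROV-1 PromethION libraries was 281 and 263 CPM and overlapped the MinION levels of 293 and 277 CPM on the same totals. CD59, at 85.1 and 102 CPM against 112 and 109.9 on MinION, did not overlap, nor did CD55 (7.52 and 8.68 against 10.8 and 10.3) or C1R (10.3 and 6.75 against 3.31 and 4.37). Of the members' calls against IGROV-1, those totals changed only that of SERPING1 in SK-OV-3 (edgeR adjusted p = 0.051).

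Beyond the 9, a list of 52 other complement genes was read in the same libraries. Of these, 23 had less than 1 count in every library, 20 stayed under 10 CPM and 9 reached 10 CPM. The recognition genes C1QA, C1QB and C1QC, the lectin gene MBL2, and C8A, C8B and C9 of the membrane attack complex were at 0 throughout. So was the factor I cofactor gene C4BPA. Of the 14 genes tested, 13 differed among the lines, where 80.5% of all genes passed. Against IGROV-1, 3 to 6 were higher and 1 to 5 lower in any line, where 33.6% to 49.0% of all genes passed. With genes at 0 put at the floor, the list's median log2 change lay between -0.68 in OVMANA and 1.39 in OVTOKO.

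CFD, the protease that cleaves factor B, had 62.8 and 64.0 CPM in IGROV-1 PromethION, 51.7 in SK-OV-3, 21.4 in OVMANA, 15.3 in OVKATE, 12.9 in COV504, 5.5 in COV362 and 2.9 in OVTOKO, and it passed as lower in all lines but SK-OV-3. CLU, which binds the terminal complex, had 3246 CPM in OVKATE and 29.4 in SK-OV-3. The membrane regulator gene SUSD4 reached 39.6 CPM in OVKATE, and THBD, encoding thrombomodulin, 69.9 in SK-OV-3 and 27.6 in COV504. ITGB2, the beta chain of the complement receptors CR3 and CR4, reached 153 CPM in OVMANA and 99.9 in OVKATE, while ITGAM, which encodes the CR3 alpha chain, stayed at 0.5 CPM or less. The collectin genes COLEC12 and COLEC10 reached 100.4 CPM in OVMANA and 37.0 in OVTOKO, and C1QBP lay between 111 and 334 CPM in all libraries.

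CD55 and CD59 reach the membrane on GPI anchors, so 27 genes of GPI synthesis and transfer were read beside them. Of these, 23 reached 10 CPM in some library, and 16 of 25 tested differed among the lines (64.0%, against 80.5% of all genes). Against IGROV-1, 2 to 8 were higher and 2 to 6 lower in a line, where 33.6% to 49.0% of all genes passed. The share of the 25 tested that passed lay above that of all genes in OVMANA and SK-OV-3 and below it in the other lines. The list's median log2 change lay between -0.09 in OVMANA and 0.31 in OVKATE. DPM1 had the highest CPM of the list, 225 in OVKATE, and PIGY was at 0 in all libraries. PIGU, which encodes a subunit of the transamidase that all GPI-anchored proteins need, had at most 1 count in any library, so a 0 in these files says only that no count was assigned to the listed transcripts.

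For the 8 members whose log2(CPM + 1) spanned 2 or more, the 3 genes with the most similar levels over the 7 lines were taken by Pearson r among 3594 variable genes. C1R was closest to its partner C1S (r = 0.936), while C1S was closer to A4GALT (0.974). C3 was closest to SHANK2 (0.964), CFB to KHDRBS3 (0.986), CFI to LTBP4 (0.977) and SERPING1 to CLMN (0.965). CD55 was closest to LPIN2 (0.969), followed by IFI44L and IFI44 (0.951 each), and CD59 to MDFIC (0.995). These are descriptions over 7 points that share the PromethION libraries, and among so many genes high values are found for any profile.

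Promoter windows of 300 nt, from 250 nt before to 50 nt after the start in RefSeq (GRCh38.p14), were at hand for 6 members, in 11 windows. C3, C1S and SERPING1 were not among them. The interferon response (ISRE) core was in the CFB window and in 3.57% of 35116 promoters on either strand, and the GAS motif TTCNNNGAA was in windows of CFB, C1R and CD59 and in 7.66%. TATAAA was in the CFB window (11.53% of all promoters), CCAAT in windows of CD46, CD59 and CFI (34.61%), and the kappaB core in none (1.91%). Letters of the ISRE core and the GAS motif can overlap. A match is a description of letters and not a binding site.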

How the data were processed

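For each of 10 nanopore libraries the authors deposited a TPM value and an estimated count of every transcript, often a fraction. The deposited TPM equalled the CPM to within 5.6e-11. Per the submitters' processing notes, minimap2 2.24-r1122 and the build GRCh38 were used. For the quantification tool and annotation release: not given in the sources used here. Nor is the strand setting, so antisense and overlapping genes are uncertain. Per the labels' protocols, the end repair of the ligation libraries was lengthened to 30 min.

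Transcripts were summed per gene. Of the deposited identifiers, 722 join several genes, and these were split by the GENCODE 29 gene of each transcript (4459 of 4502 found). Counts were rounded, which removed at most 0.026% of a library. Genes were tested over all 10 libraries, grouped by line and instrument, with edgeR 4.0.16 (quasi-likelihood F test, TMM, default expression filter, two-sided, Benjamini-Hochberg over all genes, calls at an adjusted p under 0.05), with 1 coefficient per group. Instruments were compared on the 4 IGROV-1 libraries. Usage was tested with edgeR's diffSpliceDGE on transcripts, with a Simes p per gene. DESeq2 1.42.0 was an alternative, next to other scaling, filters, left-out libraries, PromethION alone, totals without mitochondrial rRNA and identifiers left joined, the last chosen after seeing the data. Each standard error is the log2 change over the root of F. The scripts were tested on simulated data. Intervals (95% Wilson, or exact for ratios) and the floor of 3 counts cover counting error only. A single library's floor lay between 0.82 and 1.73 CPM.

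Named were all members, other complement genes from 10 CPM, the extremes of the GPI list and the variable CD46 exons. Of the transcripts with at least 10% of a gene with 50 or more counts, only some are named. Of the 3 nearest genes per member, also only some are named. The GPI list, the other complement genes, the markers and the members were chosen with earlier results of these data known. Of the other complement genes that reached 10 CPM, 1 is counted but not reported here by name.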

Additional observations from a re-analysis of the deposited data

How the results depend on the processing

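The count of members differing among the lines was 9 under each alternative. Against IGROV-1 the counts stayed within 1.5 times the reported ones, apart from SK-OV-3 with DESeq2 (5 instead of 8). DESeq2 separated 9 instead of 20 neighbouring pairs, and leaving out 1 IGROV-1 library gave 14 to 22. Between any 2 lines, 530 to 2093 genes passed with DESeq2 and 0 to 5346 without MinION replicate 1 of IGROV-1, instead of 3247 to 6517. DESeq2 also called fewer of all genes: 3787 instead of 10702 among the lines, 1460 instead of 4662 in OVMANA, 2093 instead of 6517 in OVKATE, 1284 instead of 4465 in OVTOKO, 1674 instead of 5498 in SK-OV-3, 1565 instead of 5567 in COV362 and 1776 instead of 5718 in COV504. Without MinION replicate 1 of IGROV-1, 3049 and 2794 genes passed in OVMANA and OVTOKO. Of all genes, 81 passed between instruments, 15 without a filter, 47 with all 10 libraries in the fit and 4 to 212 with 1 library left out.

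For transcript usage, the 10 CPM filter gave 1 member in OVKATE and 2 in COV362 (CD59 added, edgeR adjusted p = 0.04). Of 2880 genes, 207 and 139 then passed in these lines, instead of 175 and 120 of 4699. Joined identifiers gave 2 in OVMANA, OVTOKO, SK-OV-3 and COV362, since the added member, C1S, then shares its identifier with EMG1. Leaving out 1 IGROV-1 library gave 0 to 1 member in OVTOKO and COV504 and 1 in OVMANA, SK-OV-3 and COV362. Over all genes, leaving out 1 IGROV-1 library left 6 to 17 calls of 89 in OVMANA, 34 to 56 of 175 in OVKATE, 6 to 11 of 45 in OVTOKO, 8 to 12 of 72 in SK-OV-3, 28 to 37 of 120 in COV362, 22 to 35 of 103 in COV504 and 35 to 60 of 173 between instruments. PromethION libraries alone left 22, 72, 12, 15, 39 and 35 in these lines. With 1 library left out, CD59 in OVMANA ran from -0.07 to 0.16, CD46 in COV504 from -0.05 to 0.07 and CFI between instruments from -0.35 to 0.08 (log2), turning sign without PromethION replicate 1, PromethION replicate 2 and MinION replicate 1. None of these passed in any setting.

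Same-numbered IGROV-1 libraries deviated together (r = 0.487 over 7983 genes), but the labels do not say what a number marks. With the replicate block, 2 members passed between instruments, C1R and CD59 (edgeR adjusted p = 0.047 and 0.005), and 2016 genes instead of 81. Usage with the replicate block called 0 members and 209 genes instead of 173. Lone libraries, few reads of low members and 2 residual degrees of freedom limit all line comparisons.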
